A study of Homo sapiens with 12 samples.

Results

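The genes described here are 10 genes that act in the breakdown of heme, the handling of iron and the defence against lipid peroxides. They were taken by symbol from the table of raw read counts of 2 multiple myeloma cell lines, in which they make up 10 of 43735 entries. For heme breakdown they are HMOX1, HMOX2, BLVRA and BLVRB, for iron storage FTL, FTH1 and NCOA4, for iron transport TFRC and SLC40A1, and for the reduction of lipid peroxides GPX4. All 10 had at least 1 read, and 9 passed the filter on low counts and were tested among 14085 genes, HMOX2 being the exception. The 9 tested genes had at least 24 reads in each of the 12 libraries, so that none of them passed through a single group.

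RNA was sequenced from MM1S cells, which are sensitive to glucocorticoids (GC), and from MM1R cells, which are resistant to them, both lines deriving from a single myeloma patient. Each line was left untreated or exposed to 1 µM withaferin A (WA), a plant steroidal lactone that binds cysteines, for 3 h, with 3 cultures in each of the 4 groups. No vehicle is named for the untreated cultures, and no group carries an engineered allele. The cultures are known by their passage number, which was 16, 22 or 23 for MM1S and 4, 6 or 7 for MM1R, so that an untreated and a WA culture of each passage exist while the lines share no passage. Line and passage therefore cannot be told apart, and the comparison of the lines rests on 1 line of each kind. Libraries held 17625110 to 19368343 counted reads with a median of 18555625. All 8 plasma cell markers examined were above 1 CPM (reads scaled to the library total, with TMM factors) in every library, whereas the markers of macrophages, erythroid cells, T cells and stromal or epithelial cells summed to at most 21.3 CPM per list. Among those of macrophages and erythroid cells, which handle much heme, MSR1 had 21 to 70 reads and HBB 63 to 178, CD14, CD163, CSF1R, MRC1 and LYZ had at most 7, and HBA2 had 0.

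Heme oxygenase opens the heme ring and releases iron, carbon monoxide and biliverdin, which the biliverdin reductases BLVRA and BLVRB convert to bilirubin. HMOX1 is the inducible heme oxygenase, known as a target of NRF2 and of its antagonist BACH1, and HMOX2 is the constitutive one. Free iron is stored in ferritin, a shell of FTL and FTH1 chains, NCOA4 carries ferritin to the lysosome, TFRC imports transferrin-bound iron, SLC40A1 exports iron, and GPX4 reduces lipid peroxides whose build-up with iron leads to ferroptosis.

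Part of this system is controlled after transcription by the iron-responsive element (IRE), a hairpin in the untranslated region (UTR) of the mRNA that iron regulatory proteins bind when iron is scarce. Binding near the 5′ end holds back translation of ferritin and SLC40A1, and binding near the 3′ end protects the TFRC mRNA from decay, so the reads below report the level of an mRNA and not its translation. The hairpins were searched as C, 5 bases, CAGTGN and 5 bases pairing with the first 5 (17 bases on the mRNA strand, G with T allowed as a pair) in the main transcript of each protein-coding gene. They were found in 0.0943% of 19080 5′ UTRs and in 0.622% of 19452 3′ UTRs. Of the 10 genes, FTL, FTH1 and SLC40A1 held 1 each in the 5′ UTR and TFRC held 4 in the 3′ UTR, while the other 6 held none. The sequences are shown with 6 flanking bases because they separate the members by how their mRNA is read, with the hairpin in capitals, and that of FTH1 is not shown here.
SLC40A1, 5′ UTR, exon 1, minus strand, GRCh37 chr2:190445387-190445415: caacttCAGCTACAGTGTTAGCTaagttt
FTL, 5′ UTR, exon 1, plus strand, GRCh37 chr19:49468592-49468620: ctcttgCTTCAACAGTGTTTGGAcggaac
TFRC, 3′ UTR, exon 19, minus strand, GRCh37 chr3:195777850-195777878: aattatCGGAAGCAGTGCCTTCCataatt
TFRC, 3′ UTR, exon 19, minus strand, GRCh37 chr3:195777446-195777474: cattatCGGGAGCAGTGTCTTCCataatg
TFRC, 3′ UTR, exon 19, minus strand, GRCh37 chr3:195777381-195777409: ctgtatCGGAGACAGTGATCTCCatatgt
TFRC, 3′ UTR, exon 19, minus strand, GRCh37 chr3:195777334-195777362: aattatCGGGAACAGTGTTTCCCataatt

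With WA, HMOX1 rose and TFRC fell in both lines, and these were the 2 of the 9 tested genes past an adjusted p of 0.05 in each line. Among all 14085 genes tested, 10.5% passed that limit in MM1S cells and 14% in MM1R cells, and whether 2 of 9 exceeds those shares was not tested. FTL, FTH1 and BLVRA moved in 1 direction in each of the 6 untreated and WA pairs that share a passage, and passed the limit when passage was entered as a block, but not in the fit of the 4 group means. The share of all genes that moved in 1 direction in all 6 pairs was not determined, here or for the single genes below. With the block 5 of the 9 were called in each line, beside 24.1% of all genes in MM1S and 29.1% in MM1R cells. None of the 9 genes was called for a difference between the lines in its response to WA. The interaction test of edgeR called 0 of 14085 genes (0.0%). At an unadjusted p under 0.05 that test held 97 of all genes and 0 of the 9, and DESeq2 called 1 of all genes and 0 of the 9. These 97 genes are fewer than the limit of 0.05 would pass if no gene differed, so the edgeR test was conservative here. Its lack of calls does not show that the lines respond alike.

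**Figure D1:**
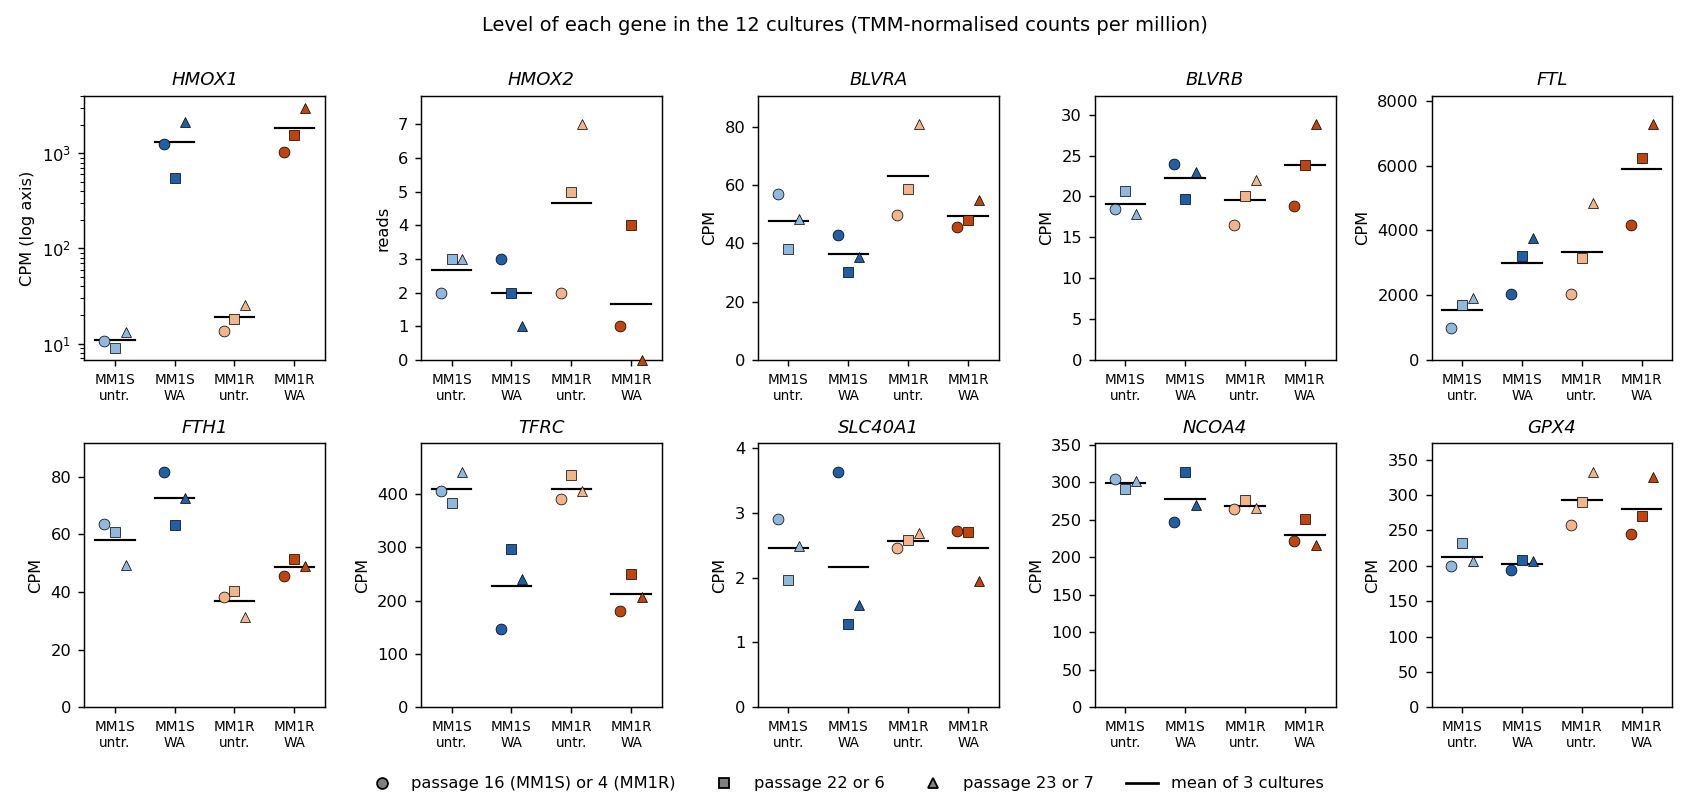
TMM-normalised CPM of each gene in the 12 cultures (HMOX2 in reads, HMOX1 on a log axis), with the 4 groups on the x axis, the passage as the shape of the point and the mean of 3 cultures as a bar. HMOX1 moves from 8.99 to 25.6 CPM in untreated cultures to between 551 and 3005 CPM with WA, and the WA points of TFRC lie below all untreated ones. Within a line, treated and untreated groups do not overlap for 30.3% (MM1S) and 33.3% (MM1R) of all genes tested.

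HMOX1 (ENSG00000100292, GRCh37 chr22:35776354-35790207, plus strand, 5 exons) showed by far the largest change of the 10 genes. In untreated MM1S cells it was at 10.6 CPM in passage 16, 8.99 in passage 22 and 13.1 in passage 23, and with WA at 1246, 551 and 2150 CPM in the same passages. In untreated MM1R cells it was at 13.5, 17.9 and 25.6 CPM in passages 4, 6 and 7, and with WA at 1040, 1547 and 3005 CPM. The lowest WA culture, MM1S passage 22, thus stood far above the highest untreated culture, MM1R passage 7, and no groups that differ in treatment overlapped. Among all genes tested, treated and untreated groups did not overlap for 30.3% in MM1S and 33.3% in MM1R cells.

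The log2 fold change (log2FC) of HMOX1 was 6.92 (SE 0.55, edgeR adjusted p = 5.8e-06) in MM1S cells and 6.62 (SE 0.54, adjusted p = 9.25e-06) in MM1R cells. On the linear scale this is a 121-fold increase (95% confidence interval 53.1 to 275) in MM1S cells and a 98.1-fold increase (43.8 to 219.9) in MM1R cells. In the ranking of all entries by reads HMOX1 went from positions 6509 to 8798 in untreated libraries to positions 19 to 230 with WA. Within passages the log2 change lay between 5.86 (MM1S passage 22) and 7.31 (MM1S passage 23), upward in 6 of 6 pairs. The difference between the lines in this change was −0.30 (SE 0.62, 95% interval −1.64 to 1.04, adjusted p = 1), an interval that includes changes of more than 2-fold in either direction. In bulk RNA a change in the number of responding cells and a change in RNA per cell cannot be told apart.

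Between untreated lines the 3 MM1R cultures lay above the 3 MM1S cultures for HMOX1, with no overlap, as did 32.3% of all genes tested in one direction or the other. Its log2FC of MM1R against MM1S was 0.80 (SE 0.46, adjusted p = 0.296), short of the limits, and with WA it was 0.50 (SE 0.42, adjusted p = 0.469) with overlapping groups. Without the WA culture of MM1R passage 7, the highest of all for HMOX1, the latter value was −0.0001, and without the WA culture of MM1S passage 23 the difference between lines in the response was 0.25.

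HMOX2 (ENSG00000103415, GRCh37 chr16:4524691-4560348, plus strand) had 2, 3 and 3 reads in untreated MM1S cells (passages 16, 22 and 23) and 3, 2 and 1 with WA. It had 2, 5 and 7 reads in untreated MM1R cells (passages 4, 6 and 7) and 1, 4 and 0 with WA. These counts are too low to compare groups, and the gene was not tested. HMOX1 made up 98.3 to 99.2% of the reads of both heme oxygenase genes in untreated libraries, the lowest being MM1S passage 22 (exact binomial 95% interval 95.1 to 99.7%), and at least 99.98% with WA.

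The low count of HMOX2 cannot be read as absence of the transcript, since the count table lists the gene again as a numbered copy, which had 0 reads in every library. Of the 1230 protein-coding genes with such a copy entry, 76.8% had at most 10 reads in every library, against 33.7% of the 17623 without one. Its neighbours on chromosome 16 with a copy entry had likewise few reads, with CORO7, PAM16, VASN, DNAJA3 and NMRAL1 at 0 to 7 and CDIP1 at 16 to 28, whereas UBALD1, which has no copy entry, had 329 to 574. Whether the copy entries set the HMOX2 count was not tested. The other 9 genes have no copy entry.

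BLVRA (ENSG00000106605, GRCh37 chr7:43798279-43846941, plus strand), the main biliverdin reductase of adult tissue, was at 56.8, 38.1 and 48.3 CPM in untreated MM1S cells (passages 16, 22 and 23) and at 42.9, 30.3 and 35.5 CPM with WA. In MM1R cells it was at 49.9, 58.7 and 80.9 CPM untreated (passages 4, 6 and 7) and at 45.7, 48.1 and 54.8 CPM with WA. The WA culture was the lower one in 6 of 6 pairs, although the groups overlapped in both lines. The log2FC was −0.40 (SE 0.19, edgeR adjusted p = 0.211) in MM1S cells and −0.35 (SE 0.19, adjusted p = 0.247) in MM1R cells. With passage as a block BLVRA fell, with a log2FC of −0.39 (adjusted p = 0.0124) and −0.33 (adjusted p = 0.0247), and DESeq2 with that block called both as well.

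BLVRB (ENSG00000090013, GRCh37 chr19:40953672-40971671, minus strand), which reduces the fetal form of biliverdin and also flavins, lay between 16.6 and 28.8 CPM in the 12 cultures. Its log2FC with WA was 0.22 (SE 0.16, edgeR adjusted p = 0.438) in MM1S cells and 0.29 (SE 0.16, adjusted p = 0.274) in MM1R cells. The value was higher with WA in 5 of 6 pairs and lower in MM1S passage 22, and the block did not bring it past the limit (adjusted p = 0.186 and 0.0915).

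**Figure D2:**
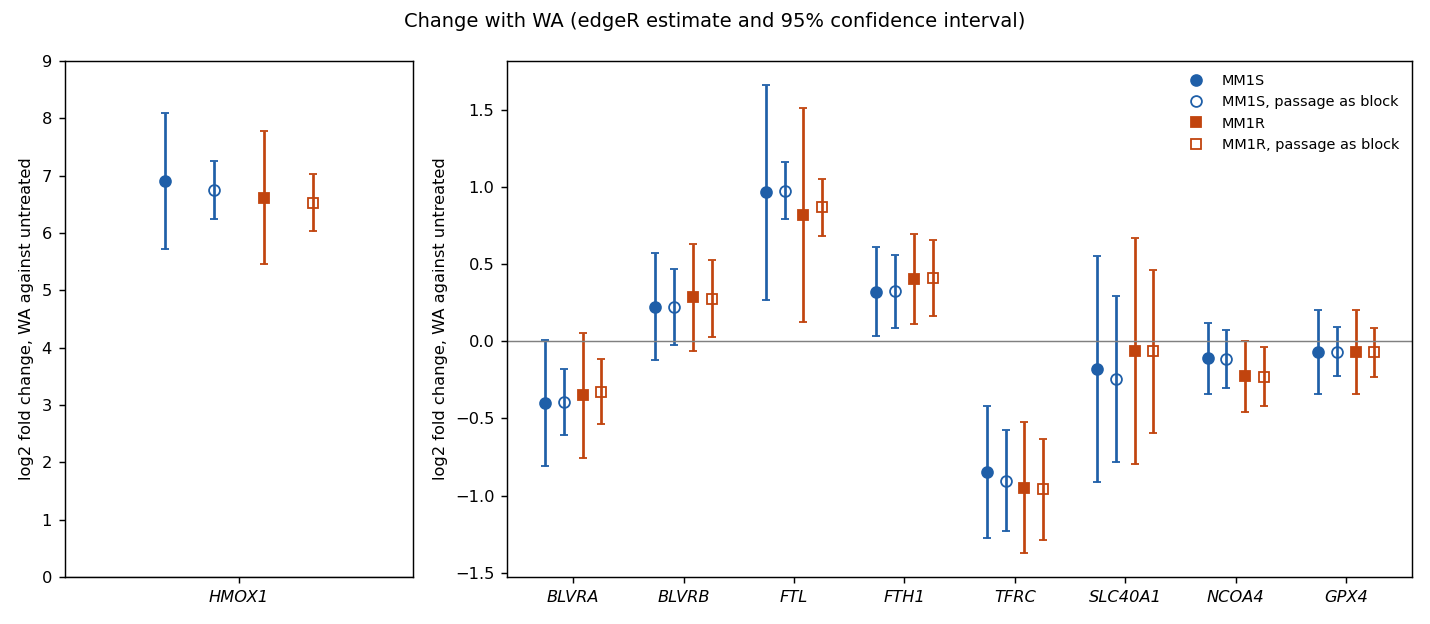
The log2FC of WA against untreated cells for the 9 tested genes with 95% confidence intervals, in MM1S (blue circles) and MM1R (orange squares), from the fit of the 4 group means (filled) and with passage as a block (open). The intervals of FTL narrow with the block from 0.27 to 1.66 to 0.79 to 1.16 in MM1S cells, and those of HMOX1 and TFRC stay clear of 0 in both fits.

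FTL (ENSG00000087086, GRCh37 chr19:49468566-49470136, plus strand, 4 exons), the light chain of ferritin, was the most abundant of the 10 genes. Untreated MM1S cells held 991, 1694 and 1915 CPM in passages 16, 22 and 23, and WA cultures of these passages 2031, 3197 and 3754 CPM. Untreated MM1R cells held 2044, 3154 and 4840 CPM in passages 4, 6 and 7, and WA cultures 4163, 6237 and 7279 CPM. Untreated and WA cultures did not overlap in MM1S cells, as for 30.3% of all genes tested, and overlapped in MM1R cells, where untreated passage 7 exceeded WA passage 4.

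FTL differed widely between passages of the same group, while its change within a passage was more uniform. The log2 change was 1.03, 0.92 and 0.97 in MM1S passages 16, 22 and 23 and 1.03, 0.98 and 0.59 in MM1R passages 4, 6 and 7, upward in 6 of 6 pairs. In the fit of group means the log2FC was 0.97 (SE 0.32, edgeR adjusted p = 0.0749) in MM1S cells and 0.82 (SE 0.32, adjusted p = 0.11) in MM1R cells, both short of the limit. With passage as a block FTL rose, with a log2FC of 0.97 (adjusted p = 1e-05) and 0.87 (adjusted p = 2.55e-05).

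The call of FTL also turned on the filter and on single libraries. With no filter on low counts its adjusted p was 8.53e-08 in MM1S and 1.14e-05 in MM1R cells. In MM1S cells it passed without the WA culture of MM1S passage 16 (log2FC 1.18, adjusted p = 0.0462) or without untreated MM1R passage 4 (0.96, adjusted p = 0.0497), and in MM1R cells without untreated MM1R passage 7 (1.18, adjusted p = 0.0481). The difference between the lines was −0.15 (SE 0.45, 95% interval −1.12 to 0.83, adjusted p = 1).

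FTH1 (ENSG00000167996, GRCh37 chr11:61727190-61735106, minus strand), the heavy chain with the ferroxidase activity of ferritin, was at 63.8, 61.0 and 49.3 CPM in untreated MM1S cells of passages 16, 22 and 23 and at 81.8, 63.2 and 72.6 CPM with WA. In MM1R cells it was at 38.5, 40.3 and 31.5 CPM untreated in passages 4, 6 and 7 and at 45.5, 51.7 and 49.0 CPM with WA. The treated and untreated groups did not overlap in MM1R cells, as for 33.3% of all genes tested, and overlapped in MM1S cells. The log2FC was 0.32 (SE 0.13, edgeR adjusted p = 0.151) in MM1S and 0.40 (SE 0.14, adjusted p = 0.0637) in MM1R cells, upward in 6 of 6 pairs by 0.05 to 0.63.

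With passage as a block FTH1 reached an adjusted p of 0.0499 in MM1S and 0.0169 in MM1R cells in edgeR, and 0.0605 and 0.01 in DESeq2. Without a block it passed in MM1R cells in DESeq2 (adjusted p = 0.0389), with a stricter filter (adjusted p = 0.0431) and without the WA culture of MM1S passage 16 (adjusted p = 0.0472).

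The level of FTH1 is uncertain in these counts. Of the 50-base windows of its main transcript, the length of 1 read of a pair, 45.2% occur elsewhere in GRCh37, on 11 other chromosomes, and exons of BEST1 on the opposite strand overlap 73.2% of its exon bases. BEST1 itself had 0 to 10 reads, and the 3 entries for processed ferritin copies together at most 10. For FTL 25.8% of the windows occur elsewhere, for NCOA4 6.89% and for the other 7 genes none. How the counting treated such reads was not tested.

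The ratio of FTL to FTH1 reads does not depend on the scaling of libraries. It was 15.6, 27.8 and 38.8 in untreated MM1S cells (passages 16, 22 and 23) and 24.8, 50.6 and 51.7 with WA, and 53.1, 78.2 and 153 in untreated MM1R cells (passages 4, 6 and 7) and 91.6, 121 and 149 with WA. Every MM1R culture thus had a higher ratio than every MM1S culture, and 5 of the 6 pairs had the higher ratio with WA, all but MM1R passage 7. The mean log2 ratio was 0.55 higher with WA over both lines, which a two-sided exact permutation test within lines did not separate from 0 (p = 0.135, the smallest possible being 0.005). With 1 library left out the difference ran from 0.374 to 0.762 and the exact permutation p from 0.04 to 0.28. The lowest p came without untreated MM1R passage 7, where the difference was 0.76. By sign flips of the 6 pairs the exact p was 0.0625. Within 1 line the exact test cannot go below 0.1, and it gave 0.3 in MM1S and 0.5 in MM1R cells.

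**Figure D3:**
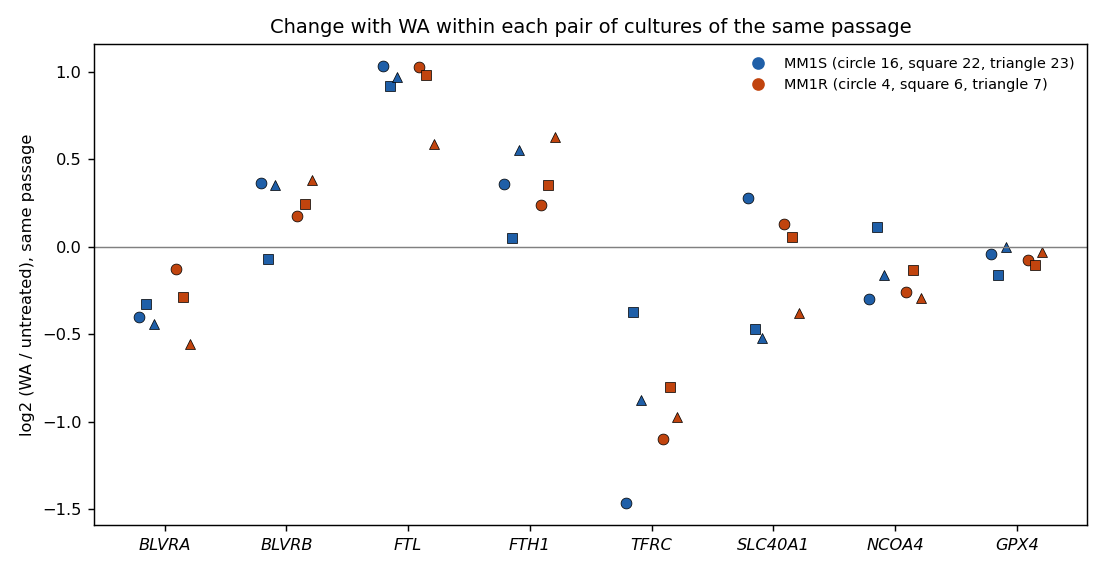
The log2 ratio of WA to untreated CPM within each passage for the 8 tested genes other than HMOX1, MM1S in blue and MM1R in orange, 1 point per pair of cultures. All 6 points of FTL and FTH1 lie above 0 and all 6 of BLVRA and TFRC below it. The share of all genes with all 6 points on 1 side was not determined.

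TFRC (ENSG00000072274, GRCh37 chr3:195739382-195809024, minus strand, 19 exons), the transferrin receptor that imports iron, fell in both lines. Untreated MM1S cells held 405, 384 and 442 CPM in passages 16, 22 and 23, and WA cultures 146, 297 and 241 CPM. Untreated MM1R cells held 390, 435 and 405 CPM in passages 4, 6 and 7, and WA cultures 181, 249 and 207 CPM. Untreated cultures were close to each other in both lines, and all 6 WA cultures lay below all 6 untreated ones. Within a line, treated and untreated groups did not overlap for 30.3% of all genes tested in MM1S and 33.3% in MM1R cells. The share for all 6 against all 6 cultures was not determined.

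The log2FC of TFRC was −0.85 (SE 0.20, edgeR adjusted p = 0.0156) in MM1S cells and −0.95 (SE 0.20, adjusted p = 0.00668) in MM1R cells, a level 1.80-fold and 1.93-fold lower. The pairs ranged from −1.46 in MM1S passage 16 to −0.37 in MM1S passage 22. With passage as a block the adjusted p was 0.00127 and 0.000673. In MM1S cells the call was lost without the untreated culture of passage 23 (log2FC −0.79, adjusted p = 0.063) and when only the 6 MM1S libraries were fitted (adjusted p = 0.0552). The difference between the lines was −0.10 (SE 0.28, 95% interval −0.70 to 0.49, adjusted p = 1), and untreated lines differed by −0.0007 (SE 0.20, adjusted p = 0.999).

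SLC40A1 (ENSG00000138449, GRCh37 chr2:190425316-190448484, minus strand), ferroportin, the exporter of iron, was the least abundant of the tested members with 1.28 to 3.63 CPM, or 24 to 67 reads, in the 12 cultures. It was higher with WA in 3 of 6 pairs and lower in 3. The log2FC was −0.18 (SE 0.34, 95% interval −0.91 to 0.55, edgeR adjusted p = 0.809) in MM1S and −0.06 (SE 0.34, −0.79 to 0.67, adjusted p = 0.94) in MM1R cells, so that a decrease of up to 0.79 log2 units lies within both intervals.

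NCOA4 (ENSG00000266412, GRCh37 chr10:51565199-51590734, plus strand), the receptor that delivers ferritin to lysosomes for iron release, lay between 216.5 and 314 CPM. In MM1R cells it was at 265, 276 and 266 CPM untreated in passages 4, 6 and 7 and at 222, 251 and 216.5 CPM with WA, with no overlap, as for 33.3% of all genes tested. Its log2FC was −0.23 (SE 0.11, edgeR adjusted p = 0.183) there and −0.11 (SE 0.11, adjusted p = 0.591) in MM1S cells, where the groups overlapped. With passage as a block the adjusted p was 0.067 in MM1R and 0.367 in MM1S cells.

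GPX4 (ENSG00000167468, GRCh37 chr19:1103981-1106790, plus strand), the selenoenzyme that reduces phospholipid peroxides, was the member whose change with WA varied least between pairs (SD 0.057 log2 units over 6 pairs). It was at 199, 232 and 207.5 CPM in untreated MM1S cells (passages 16, 22 and 23) and at 194, 208 and 207 CPM with WA, and at 258, 290 and 333 CPM in untreated MM1R cells (passages 4, 6 and 7) and 245, 270.0 and 326 CPM with WA. The log2FC with WA was −0.07 in both lines, with 95% intervals of −0.34 to 0.20 (edgeR adjusted p = 0.8 in MM1S and 0.787 in MM1R cells). With passage as a block the intervals ran from −0.23 to 0.09 in both lines. An increase above 0.20 log2 units or a decrease beyond −0.34 lay outside the intervals of both lines.

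Between the lines none of the 9 genes met the study's limits, an adjusted p of 0.01 and a log2FC beyond 1 in size, which 2.97% of all genes met in untreated cells and 3.04% with WA. At an adjusted p of 0.05 without a limit on the fold, 3 of the 9 passed in untreated cells against 11.9% of all genes, and 2 with WA against 12%. FTL was 2.18-fold higher in untreated MM1R than MM1S cells (95% interval 1.34 to 3.54, log2FC 1.13, edgeR adjusted p = 0.0385), and with WA the log2FC was 0.98 (adjusted p = 0.0668). FTH1 went the other way, being 1.58-fold lower in MM1R cells (log2FC −0.66, SE 0.14, adjusted p = 0.00677) and with WA 1.49-fold lower (log2FC −0.58, adjusted p = 0.0144). GPX4 was 1.38-fold higher in MM1R cells both untreated (adjusted p = 0.0301) and with WA (adjusted p = 0.0294).

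With 1 library left out, the adjusted p of the untreated line difference lay between 0.0153 and 0.185 for FTL, between 0.0195 and 0.12 for GPX4 and between 0.00397 and 0.0348 for FTH1. The groups of the 2 lines did not overlap for 5 of the 9 genes in untreated cells (HMOX1, FTL, FTH1, NCOA4 and GPX4), beside 32.3% of all genes, and for 4 with WA (BLVRA, FTL, FTH1 and GPX4), beside 29.1%. BLVRA was at a log2FC of 0.40 (adjusted p = 0.194) untreated and 0.45 (adjusted p = 0.138) with WA.

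The genes were ordered by CPM per kilobase of the main transcript, which corrects for transcript length only. Uncertain are thus the levels of FTH1, FTL and NCOA4, whose windows partly occur elsewhere, and of HMOX2, which has a copy entry. FTL stood first in all 4 groups. Its mean was 1761 ± 554 CPM per kilobase (SD, n = 3) in untreated MM1S and 6766 ± 1821 in WA-treated MM1R cells. In untreated cells GPX4 was second (250.1 in MM1S and 345 in MM1R cells) and HMOX1 eighth (7.00 and 12.2). With WA HMOX1 was second (847 and 1200.0), above GPX4 in every culture. NCOA4 and TFRC had overlapping ranges in untreated cells, whereas with WA NCOA4 lay above TFRC in both lines. FTH1 stood at 48.2 in untreated MM1S and 30.6 in untreated MM1R cells, and SLC40A1 and HMOX2 were last in every group, with means below 1.

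Together the 10 genes took 0.213 to 0.311% of the reads of untreated MM1S libraries and 0.409 to 0.660% with WA, and 0.319 to 0.578% of untreated and 0.618 to 1.04% of WA-treated MM1R libraries. FTL alone held 0.103 to 0.199% and 0.207 to 0.367% in MM1S, and 0.212 to 0.466% and 0.432 to 0.679% in MM1R cells. Without HMOX1 the mean share of the other 9 was 0.268% and 0.381% in MM1S and 0.438% and 0.649% in MM1R cells.

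The genes whose profile over the 12 libraries was most like that of HMOX1, by the root mean square difference of centred log2 CPM, were HSPA1B (2 entries, 0.44 and 0.49 log2 units), PGF (0.60), HSPA7 (0.61) and DNAJB1 (0.90). HSPA1B and HSPA7 are heat shock genes. The 2 HSPA1B entries are numbered copies of the same gene, of the kind described for HMOX2, so that its reads may be split between them. PGF, a growth factor of the VEGF family, went from 0 to 3 reads in untreated to 131 to 297 with WA in MM1S cells and from 0 reads to between 160 and 236 in MM1R cells. DNAJB1, a co-chaperone, had log2FC of 4.91 and 5.40.

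The calls in the lists below can be read beside the 10.5% and 14% of all genes called in MM1S and MM1R cells, or 24.1% and 29.1% with the block. The lists were chosen with earlier results of these data known, so their counts describe the lists and are no independent support. Of the 8 tested heme synthesis genes 1 was called in MM1S and 2 in MM1R cells. FECH, the ferrochelatase that inserts iron into the ring, rose in both lines (log2FC 0.44, edgeR adjusted p = 0.0153, and 0.32, adjusted p = 0.0494). FECH lost its call in MM1S cells without any of the 3 untreated MM1S cultures or WA passage 23, and in MM1R cells without any single library but WA-treated MM1S passage 16. The median log2FC of the list was −0.030 and −0.006 in MM1S and MM1R cells, beside 0.015 and 0.011 over all genes tested.

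Of the 7 tested heme transport genes 2 were called in MM1S and 3 in MM1R cells. ABCB6, a porphyrin transporter, rose by 0.86 (adjusted p = 0.00326) and 0.64 (adjusted p = 0.015), and SLC48A1, which brings heme out of endosomes and lysosomes, rose by 0.73 (adjusted p = 0.000783) and 0.61 (adjusted p = 0.00215) in MM1S and MM1R cells. SLC48A1 stayed past the limit in each of the 12 fits with 1 library left out, in both lines, and ABCB6 in 12 in MM1S and in 10 in MM1R cells, the exceptions being untreated passage 6 and WA passage 4. ABCB10 fell in MM1R cells (−0.40, adjusted p = 0.0496), a call that remained in 3 of these 12 fits. In MM1S cells it was at −0.34 (adjusted p = 0.111, or 0.024 with the block). Without untreated MM1R passage 6 or WA passage 4, 1 gene of the list was called in MM1R cells. The list medians were −0.154 and −0.153.

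Of the 12 tested genes of iron uptake, storage and sensing, SLC25A28, mitoferrin of the mitochondrial membrane, fell in both lines (log2FC −0.47 in each, edgeR adjusted p = 0.0215 and 0.0171), and kept the call in 8 of 12 fits with 1 library left out in each line. The list had 0 calls in MM1S cells without untreated passage 22 or 23 or WA passage 16 or 22, and in MM1R cells without untreated passage 6 or 7 or WA passage 4 or 6, and 2 there without untreated passage 4. With the block 3 of the 12 fell in MM1R cells. The list medians were −0.095 and −0.16. The iron regulatory protein genes ACO1 and IREB2, picked here for their role at the IRE after the values were seen, had log2FC of 0.14 and 0.10 in MM1S and 0.06 and 0.07 in MM1R cells (adjusted p from 0.531 to 0.801).

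Of the 17 tested genes of iron-sulfur cluster assembly, edgeR called 0 in MM1S cells (3 at an unadjusted p under 0.05, 1 by DESeq2, 3 with the block). In MM1R cells IBA57 rose (0.49, adjusted p = 0.025) and kept its call in 9 of 12 fits with 1 library left out, the exceptions being untreated MM1R passages 4 and 6 and WA passage 7. The medians were 0.019 and −0.017.

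**Figure D4:**
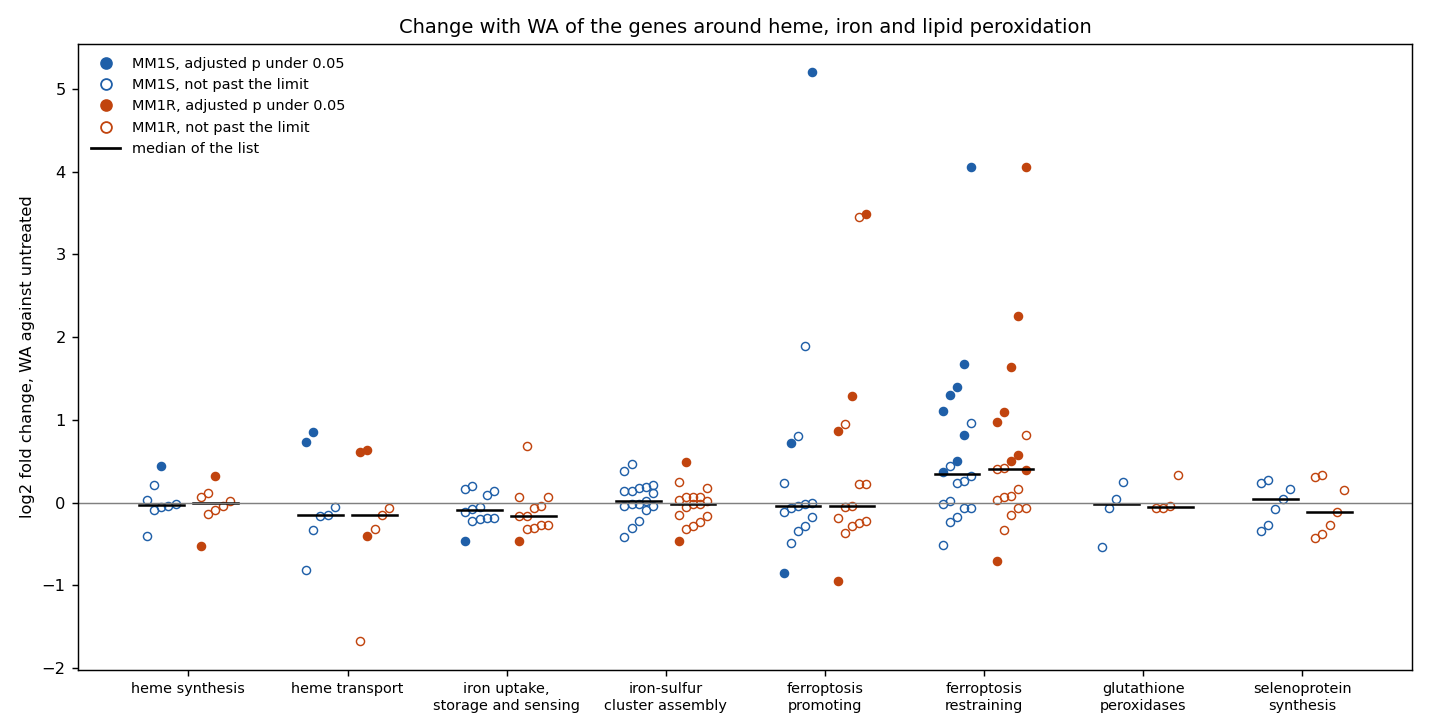
The log2FC of WA against untreated cells for every tested gene of 8 lists, MM1S in blue and MM1R in orange, filled where the adjusted p is under 0.05, with the list median as a bar. Filled points above 0 are most frequent among genes that restrain ferroptosis, where 8 of 20 rose in each line. The lists were chosen with earlier results of these data known.

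Among genes known to restrain ferroptosis, a list that holds FTL, FTH1, SLC40A1 and GPX4, 8 of 20 rose and 0 fell in MM1S cells, and 8 rose and 1 fell in MM1R cells. Over all genes 6.25% rose and 4.23% fell in MM1S and 7.55% rose and 6.46% fell in MM1R cells. Because the list was chosen with earlier results of these data known, its excess over these shares was not tested. The medians were 0.345 and 0.402. The count with the block was 11 higher and 1 lower of 20 in MM1S and 11 higher and 2 lower in MM1R cells. Over all genes the block gave 12.5% higher and 11.7% lower in MM1S and 14.7% higher and 14.4% lower in MM1R cells. With 1 library left out 5 to 9 and 5 to 10 of the list were called in the fit without the block, and 5 were called in MM1S cells when only the 6 MM1S libraries were fitted. The lowest count, 5, came without either culture of MM1S passage 23 in MM1S cells and without untreated passage 6 in MM1R cells.

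HSPB1, a small heat shock protein, rose by 4.06 in both lines (adjusted p = 9.86e-05 and 9.43e-05). SLC7A11 and SLC3A2, which together form the cystine importer, rose by 1.68 (adjusted p = 0.0223) and 1.39 (adjusted p = 0.0204) in MM1S and by 2.25 (adjusted p = 0.00436) and 1.64 (adjusted p = 0.00702) in MM1R cells. In MM1S cells SLC7A11 lost the call without either culture of passage 23 (adjusted p = 0.0828 untreated, 0.0901 WA), and SLC3A2 without these (0.0697 and 0.0888) or without untreated passage 16 (0.0549). Both also lost it when only the 6 MM1S libraries were fitted (adjusted p = 0.0647 for SLC7A11 and 0.0508 for SLC3A2). GCLM, a subunit of the enzyme that starts glutathione synthesis, rose by 1.29 (adjusted p = 9.86e-05) and 1.10 (adjusted p = 0.000345). The 1 gene that fell, in MM1R cells, was DHODH (−0.71, adjusted p = 0.0305), a mitochondrial enzyme of pyrimidine synthesis, named after its value was seen.

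Among genes known to promote ferroptosis, a list that holds TFRC and NCOA4, 2 of 15 rose and 1 fell in MM1S cells, and 3 rose and 1 fell in MM1R cells, beside 10.5% and 14% of all genes called, with medians of −0.046 and −0.042. Without untreated MM1S passage 23, or with only the 6 MM1S libraries fitted, the list had 0 calls in MM1S cells, and without untreated MM1R passage 6 it had 2 in MM1R cells. The gene that fell was TFRC in both lines. CHAC1, which degrades glutathione, rose in MM1R cells (3.49, adjusted p = 0.0247) and was at 1.90 (adjusted p = 0.193) in MM1S cells, with 90 to 1123 reads in untreated and 495 to 3794 in WA cultures there. In MM1R cells it lost the call without any of the 3 untreated cultures or without WA passage 7 (log2FC 2.21, adjusted p = 0.131).

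SAT1, which acetylates polyamines, rose in MM1R cells (1.29, adjusted p = 0.00701) and was at 0.80 (adjusted p = 0.0733) in MM1S cells, where it passed with the block (adjusted p = 0.00612). The lipoxygenase gene ALOXE3 was called in MM1S cells (adjusted p = 0.0105) on 0 to 1 reads in untreated and 4 to 23 with WA, and had 0 to 1 and 1 to 10 reads in MM1R cells. ALOX12, a further lipoxygenase named after its value was seen, rose by 0.72 (adjusted p = 0.0448) and 0.87 (adjusted p = 0.0159), a call kept in 3 and 10 of 12 fits with 1 library left out. With the block 5 of 15 were called in MM1S and 6 in MM1R cells, beside 24.1% and 29.1% of all genes.

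Of the 4 tested glutathione peroxidase genes, GPX4 among them, edgeR called 0 in either line, with 0 at an unadjusted p under 0.05 and 0 by DESeq2, and the medians were −0.014 and −0.054. Of the 7 genes of selenoprotein synthesis, which GPX4 needs for its selenocysteine, edgeR called 0 in either line, with 2 in MM1S and 3 in MM1R cells at an unadjusted p under 0.05 and 0 and 1 by DESeq2. With the block 1 and 3 of these 7 passed, and the medians were 0.045 and −0.108. In MM1R cells 1 of the 7 was called without untreated MM1R passage 4 or without WA-treated MM1S passage 16.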

How the data were processed

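Cells of both lines were grown in RPMI-1640 medium, RNA was extracted with the RNeasy kit and libraries were sequenced as paired 50-base reads on a BGISEQ-500. The submitters' processing notes name FastQC 0.11.5, STAR 2.7.3a, hg19 and DESeq2. The authors deposited raw counts of reads per gene, not normalized, which were used here, and a normalized table that was not used. The annotation and the strand setting are not given in the sources used here.

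Groups came from the labels. In R 4.3.3, edgeR 4.0.16 (filterByExpr with a minimum count of 10, TMM, quasi-likelihood test, Benjamini-Hochberg over 14085 genes) was fitted once to all 12 libraries and tested on simulated data. The limits were an adjusted p of 0.05 for WA and for the difference between lines, and 0.01 with a log2FC of 1 between lines. DESeq2 1.42.0, other filters and scalings, the replicate block and fits with 1 library left out served as alternatives. Coordinates, 50-base windows and hairpins come from GRCh37 with GENCODE genes, and promoter windows from RefSeq (GRCh38.p14). CPM are TMM-normalised. Log2 changes within a passage are ratios of these CPM with a small constant added to both values. The log2 CPM behind the passage correlations and the profiles most like HMOX1 use a prior count of 2. Intervals on read shares cover counting error only, since reads carry no molecular identifiers. The study describes the cultures of a group as biologically independent, and the labels tell them apart by passage. In the main fit the 4 groups share 1 estimate of the spread, taken from all 12 libraries of both lines. Its p-values therefore measure the spread between passages within groups, pooled over the lines. With the block they measure the spread of the WA change between passages.

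Cultures were paired by passage. For cultures that share a passage, the deviations of untreated and WA cultures from their group means correlated with 0.713, 0.253 and 0.44 (MM1S 16, 22 and 23) and 0.39, 0.178 and 0.216 (MM1R 4, 6 and 7). Between different passages the correlations ran from −0.589 to 0.366 in MM1S and from −0.341 to 0.108 in MM1R cells. Untreated MM1S passage 22 correlated with WA passage 23 at 0.309, and untreated passage 23 with WA passage 22 at 0.366. Both exceed 0.253, so MM1S passage 22 was not matched best by its own passage. The block is passage within line.

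The 10 members and all lists were chosen with earlier results of these data known. All members are described, and of each list up to 4 called genes with the largest mean change are named, other names being marked. Some called list genes are not reported here.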

Additional observations from a re-analysis of the deposited data

How the results depend on the processing

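HMOX1 kept its direction and its call with WA in both lines under every alternative and with each library left out (log2FC 6.36 to 7.28 in MM1S and 6.12 to 6.90 in MM1R cells), and TFRC did in MM1R cells (−1.06 to −0.85). The cause of the changes below was not tested. The adjusted p limit of 0.01 left 556 genes in MM1S and 812 in MM1R cells and 1 member in MM1S cells. The replicate block (passage) gave 3399 and 4094 genes in edgeR and 2930 and 3400 in DESeq2, with 5 members in each line in edgeR and 4 and 5 in DESeq2, and it changed no other call of a member than those of FTL, FTH1 and BLVRA. With only the libraries compared 1 member was called in MM1S cells.

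For the difference between lines in the response, no filter gave 11 genes, DESeq2 1 and DESeq2 with the block 6, none of them a member. Between lines no filter gave 811 genes untreated and 819 with WA and 1 member (FTL) untreated, a minimum of 10 reads in every library gave 234 and 222, and an adjusted p of 0.05 without a fold limit gave 1681 and 1690 genes and 3 and 2 members. Leaving out 1 library moved the genes called from 726 to 1621 in MM1S cells (lowest without untreated passage 23 or 22 or WA passage 23 or 16: 726, 729, 816 and 930), from 950 to 2396 in MM1R cells (without untreated 6 or 7 or WA 7 or 4: 950, 1215, 1074 and 1297), from 268 to 537 between untreated lines (268 without MM1R passage 6) and from 264 to 649 with WA (without MM1S 23, 16 or 22 or MM1R 6: 283, 649, 264 and 272). Members called then numbered 1 to 3 in MM1S and 2 to 3 in MM1R cells, and the log2 FTL to FTH1 difference ranged from 0.374 to 0.762.

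Signs turned only for values that were not called. GPX4's difference between lines was −0.0005 with no filter and −0.0036 with the block, and the untreated TFRC line difference was 0.0113 in the fit of its own libraries. With 1 library left out, WA values ranged from −0.7709 to 0.0876 (SLC40A1, MM1S), −0.1418 to 0.1037 (SLC40A1, MM1R) and −0.1646 to 0.0298 (GPX4, MM1R). The difference between lines ranged from −0.7955 to 0.2493 for HMOX1, −0.0974 to 0.2655 for BLVRA, −0.0685 to 0.2072 for BLVRB, −0.4062 to 0.2146 for FTL, −0.0173 to 0.1852 for FTH1, −0.3419 to 0.1334 for TFRC, −0.1511 to 0.7087 for SLC40A1 and −0.0913 to 0.0998 for GPX4. Untreated lines ranged from −0.0589 to 0.1419 for BLVRB, −0.0663 to 0.0551 for TFRC and −0.0697 to 0.2033 for SLC40A1, and lines with WA from −0.0001 to 1.0508 for HMOX1, −0.0383 to 0.2426 for BLVRB, −0.3441 to 0.131 for TFRC and −0.0849 to 0.775 for SLC40A1. Of the list genes called in a line, none changed sign under any alternative, which were added for lists after the data were seen. HMOX2 is limited by its 0 to 7 reads.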

Other observations

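The promoters of the members were searched for 2 known motifs, on both strands, in RefSeq windows of GRCh38.p14. These windows reach from 250 bases before to 50 after a start site, and only the 250 bases before it were searched. The core of the antioxidant response element, TGACNNNGC, lies in 10.9% of 35116 promoters and in none of the 12 windows of HMOX2, BLVRA, BLVRB, FTL, TFRC, SLC40A1, NCOA4 and GPX4. A pair of heat shock units, GAANNTTC or TTCNNGAA, lies in 11.6% of promoters, and among these genes in 1 window of FTL, at position −245 from the start site, and in 1 of NCOA4, at −157. HMOX1 and FTH1 had no window.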
